A study of Mus musculus with 9 samples.

Results

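The genes described here drive the cell division cycle. They comprise 48 symbols in 3 classes, of which 47 were measured, out of 19698 genes tested on the same arrays: 14 regulators of G1 and of entry into S phase, 13 genes of replication licensing, DNA synthesis and nucleotide supply, and 20 genes of G2 and mitosis. A gene was represented by the array row that carried its symbol alone, and by the row with the highest mean where it had several. *Ccnb1* was not analysed here. The cells were 3T3 fibroblasts, an immortalised mouse embryonic line, in 3 groups of 3 arrays, and none of the labels gives unstimulated BAF-knockdown cells. The BAFkd_st group was BAF-knockdown cells that received 5 ng per ml of TNF-α over 1 h, the control_st group was control cells given the same TNF-α, and the control_ns group was unstimulated control cells. BAF is a nucleosome remodelling complex powered by either of the ATPases Brg1 (*Smarca4*) and Brm (*Smarca2*). In the knockdown, a retrovirus with a U6 promoter stably expressed 1 short hairpin RNA against a sequence that both ATPases share, together with GFP, and cells with high GFP were sorted. The labels mark control cells only as without the knockdown. The methods describe the 3 replicates of a group as independent and made on different days.

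Cells pass from G1 into S phase when D-type cyclins with Cdk4 or Cdk6, and then cyclin E with Cdk2, phosphorylate the Rb family and release E2F transcription factors. E2F targets include the MCM helicase subunits and the enzymes that make deoxynucleotides. Genes of G2 and mitosis are switched on later, largely through the MuvB complex with B-Myb and FoxM1, at a promoter element named the cell cycle genes homology region (CHR), often with CCAAT boxes bound by NF-Y nearby. In fibroblasts the D-type cyclins are the link from growth factors to the cycle. A population that divides out of step holds cells of every phase, so an array reports an average over the phases, and a difference in the share of cells in a phase cannot be told apart from a difference in transcript level per cell.

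Levels are RMA log2 signals, on which a difference of 1 is a doubling, and differences carry the standard error of a limma fit over all 9 arrays. A gene was called at a Benjamini-Hochberg adjusted p under 0.05 over all genes tested. Levels of different genes are not set against each other, since probes differ in brightness. The medians of the arrays lay between 7.77 and 7.83, arrays correlated at 0.992 to 0.998, and no pair was identical. *Smarca4* stood at 10.50, 10.64 and 10.25 on BAFkd_st arrays 1, 2 and 3, at 11.62, 11.53 and 11.56 on the control_st arrays and at 11.66, 11.56 and 11.63 on the control_ns arrays, and was called lower in the knockdown (-1.11 ± 0.09, adjusted p = 0.00362). *Smarca2* averaged 9.21, 9.57 and 9.45 in the groups in that order and was not called (-0.36 ± 0.20, adjusted p = 0.734). The methods measured the residual mRNA of both ATPases by quantitative RT-PCR, which is not used here. The array values alone do not give the depth of the knockdown. Of 9 fibroblast markers, 8 had means above the median of all genes, against 1 of 7 leukocyte markers and 1 of 9 epithelial and endothelial markers. The mean of the 9 fibroblast markers ran between 11.39 and 11.61 on the BAFkd_st arrays, between 11.73 and 12.02 on the control_st arrays and between 11.83 and 12.08 on the control_ns arrays. All 9 lay below 0 in the knockdown comparison (median -0.15), 0 of them called without a term for the replicate number and 3 with it (*Col3a1*, *Pdgfra* and *S100a4*), and the part of that in the differences below was not tested.

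The promoters of the 3 classes carried different sequence words, counted without use of the array values. RefSeq promoters (mouse build GRCm38.p6, 250 bases before to 50 after the start) were matched for 36 of the 47 genes, and a gene was counted if any of its promoters held the word on either strand. *Ccnd1* and *Ccnd2* were among the genes without a match, so their promoters were not searched. The CHR words searched were TTTGAA and TTCGAA, the NF-Y word was CCAAT, and the E2F words were TTCCCGC, its close relative TTCGCGC, then TTGCCGC, and finally TTGGCGC, which can overlap TTCGCGC read on the other strand. A CHR word was present in 13 of 15 promoters of G2 and mitosis genes (86.7%), against 2 of 11 S phase genes (18.2%), 2 of 10 G1 regulators (20%) and 21.7% of the 27025 genes in the table. The same 13 also held CCAAT, a combination found in 9.65% of all genes, and the exceptions were *Birc5* and *Cenpe*. E2F words ran the other way, in 8 of 11 S phase genes (72.7%), 5 of 10 G1 regulators (50%) and 2 of 15 G2 and mitosis genes (13.3%), against 10.9% of all genes. CCAAT alone was widespread, in 14 of 15, 8 of 11 and 5 of 10 genes of G2 and mitosis, S phase and G1, and in 41.1% of all genes. A word is a match of letters and not a measured binding site.

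The 150 bases before the start, 5′ to 3′ on the gene's strand, are shown for 5 genes to which the results return: *Mcm6* and *Cdc6* of S phase, *Cdc20* and *Kif11* of mitosis, and the G1 kinase gene *Cdk6*. Capitals mark the words above, in either orientation. Their positions are chr1:128359706-128359855 on the minus strand for *Mcm6*, chr11:98908001-98908150 on the plus strand for *Cdc6*, chr4:118437344-118437493 on the minus strand for *Cdc20*, chr19:37376232-37376381 on the plus strand for *Kif11* and chr5:3343743-3343892 on the plus strand for *Cdk6*.
Mcm6: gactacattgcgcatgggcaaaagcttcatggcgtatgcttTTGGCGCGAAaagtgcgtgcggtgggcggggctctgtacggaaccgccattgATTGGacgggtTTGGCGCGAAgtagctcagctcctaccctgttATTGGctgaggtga
Cdc6: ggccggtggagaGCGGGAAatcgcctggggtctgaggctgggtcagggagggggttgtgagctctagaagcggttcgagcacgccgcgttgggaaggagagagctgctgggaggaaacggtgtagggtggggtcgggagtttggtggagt
Cdc20: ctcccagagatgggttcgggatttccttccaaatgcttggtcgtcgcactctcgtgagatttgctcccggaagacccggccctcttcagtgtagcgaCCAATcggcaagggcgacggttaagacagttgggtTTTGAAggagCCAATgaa
Kif11: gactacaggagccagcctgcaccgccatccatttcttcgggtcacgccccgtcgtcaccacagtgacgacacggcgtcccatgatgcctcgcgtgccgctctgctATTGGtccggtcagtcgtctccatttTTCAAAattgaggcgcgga
Cdk6: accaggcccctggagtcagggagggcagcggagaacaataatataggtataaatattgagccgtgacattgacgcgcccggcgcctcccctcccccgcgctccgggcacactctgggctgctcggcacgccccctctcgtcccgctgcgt
In *Mcm6* each of the capital runs TTGGCGCGAA holds 2 overlapping E2F words, TTGGCGC and the reverse complement of TTCGCGC, at 40 to 46 and 37 to 43 bases before the start in the nearer run, with CCAAT boxes (here as ATTGG) at 53 to 57 and 10 to 14 bases. *Cdc6* holds 1 E2F word, 132 to 138 bases before the start. *Cdc20* and *Kif11* share a layout, with a CHR word at 13 to 18 and 14 to 19 bases before the start and a CCAAT box further out, at 49 to 53 and 41 to 45 bases, and *Cdc20* has a further CCAAT at 4 to 8 bases. *Cdk6* held none of the words in its 300-base window.

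The D-type cyclin gene *Ccnd2* showed the largest of the knockdown differences (0.56, higher in the knockdown), and over all 9 arrays it was called only once the replicate number entered the fit. Without a term for the replicate number, 0 of the 47 genes were called in TNF-treated BAF-knockdown cells against TNF-treated control cells, where 0.137% of all genes were called. At an unadjusted p under 0.05, 2 were higher, *Ccnd2* and *Top2a*, against 3.69% of all genes, and 0 were lower, against 4.75%. The labels and methods state no pairing across groups. The arrays were treated as paired by replicate number on the ground of their correlations, as described below. With the number as a block *Ccnd2* and *Cdk6* were called higher and 0 genes lower, against 0.98% and 2.33% of all genes. At an unadjusted p under 0.05 the block put 10 of the 47 above and 0 below, against 5.95% and 7.41%. The methods name genes BAF-dependent if lower, and BAF-inhibited if higher, in the knockdown by more than 0.3. That difference alone took in *Ccnd1* and *Ccnd2* above (1.87% of all genes) and 0 below (3.27%). The arrays of 2 genes, *Ccnd2* and *Top2a*, did not overlap between the groups on the higher side (4.63% of all genes) and those of 0 on the lower side (5.47%).

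*Ccnd2* encodes cyclin D2, which activates Cdk4 and Cdk6 in response to growth factors. Its level was 13.19, 13.02 and 13.31 on BAFkd_st arrays 1, 2 and 3, against 12.71, 12.46 and 12.68 on the control_st arrays, with 12.61, 12.53 and 12.56 on the control_ns arrays. Every knockdown array thus lay above all 6 control arrays. The difference between the TNF-treated groups was 0.56 ± 0.09, or 1.47-fold (adjusted p = 0.0650, or 0.00407 with the block), and the 3 same-numbered pairs gave 0.49, 0.56 and 0.62. Leaving out 1 array at a time moved the difference between 0.48 and 0.63, and without BAFkd_st array 2 it was called without the block too (adjusted p = 0.0236). The blocked call was lost without all arrays numbered 1 (0.176) or 3 (0.0684), and was kept without those numbered 2 (0.0175). Without arrays numbered 1 the blocked fit called 0 genes of any kind in this comparison, at an adjusted p of 0.148 for *Smarca4*. Against control_ns cells, where TNF-α and the knockdown both differ and cannot be told apart, *Ccnd2* was the only one of the 47 genes called (0.61, adjusted p = 0.0204, against 1.12% of all genes), and with the block *Cdk6* joined it (0.20, blocked adjusted p = 0.0486, against 5.34%), a call that was lost without all arrays of any 1 number (adjusted p between 0.138 and 0.373). Beyond 0.3 lay *Ccnd1* and *Ccnd2* above (2.95%) and *Cdc25b* below (3.9%). The unblocked call of *Ccnd2* was lost on leaving out any of the 3 control_ns arrays, BAFkd_st array 1 or BAFkd_st array 3, with a highest adjusted p of 0.0967.

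The other D-type cyclin genes were not called. *Ccnd1*, encoding cyclin D1, stood at 12.33, 11.64 and 12.37 on the BAFkd_st arrays, against 11.76, 10.81 and 12.26 on the control_st arrays, with 11.73, 10.85 and 12.19 on the control_ns arrays. Array 2 was the lowest in every group and the groups overlapped throughout. The difference between the TNF-treated groups was 0.50 ± 0.42, or 1.42-fold, above 0 in 3 of 3 pairs (0.57, 0.83 and 0.11), and was called neither without the block (adjusted p = 0.869) nor with it (0.50 ± 0.12, adjusted p = 0.0830). Without 1 array it ran between 0.10 and 0.83, lowest without control_st array 2. *Ccnd3*, encoding cyclin D3, stood at 11.58, 11.62 and 11.50 on the BAFkd_st arrays, against 11.67, 11.53 and 11.48 on the control_st arrays, a difference of 0.01 ± 0.08. Whether *Ccnd2* differed from the other D-type cyclin genes in its response was not tested.

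Of the kinases, *Cdk6* was at 11.27, 11.01 and 11.28 on the BAFkd_st arrays, against 11.03, 10.70 and 11.06 on the control_st arrays, with 11.08, 10.79 and 11.08 on the control_ns arrays. In each numbered pair the knockdown array was the higher (0.25, 0.30 and 0.21), although the groups overlapped because BAFkd_st array 2 lay below control_st arrays 1 and 3. The difference of 0.25 ± 0.12 (1.19-fold) was not called without the block (adjusted p = 0.658) and was called with it (0.25 ± 0.05, adjusted p = 0.0278). The blocked call was lost without all arrays of any 1 number, at adjusted p of 0.353, 0.114 and 0.166 without those numbered 1, 2 and 3. *Cdk4*, whose product has the same partners, was at 13.63, 13.69 and 13.55 on the BAFkd_st arrays, against 13.68, 13.65 and 13.56 on the control_st arrays, a difference of less than its standard error (0.05). *Cdk2*, the partner of cyclin E, averaged 10.64 ± 0.07 in BAFkd_st cells and 10.50 ± 0.20 in control_st cells (SD, n = 3 each), a difference of 0.14 ± 0.11 that was not called.

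**Figure D1:**
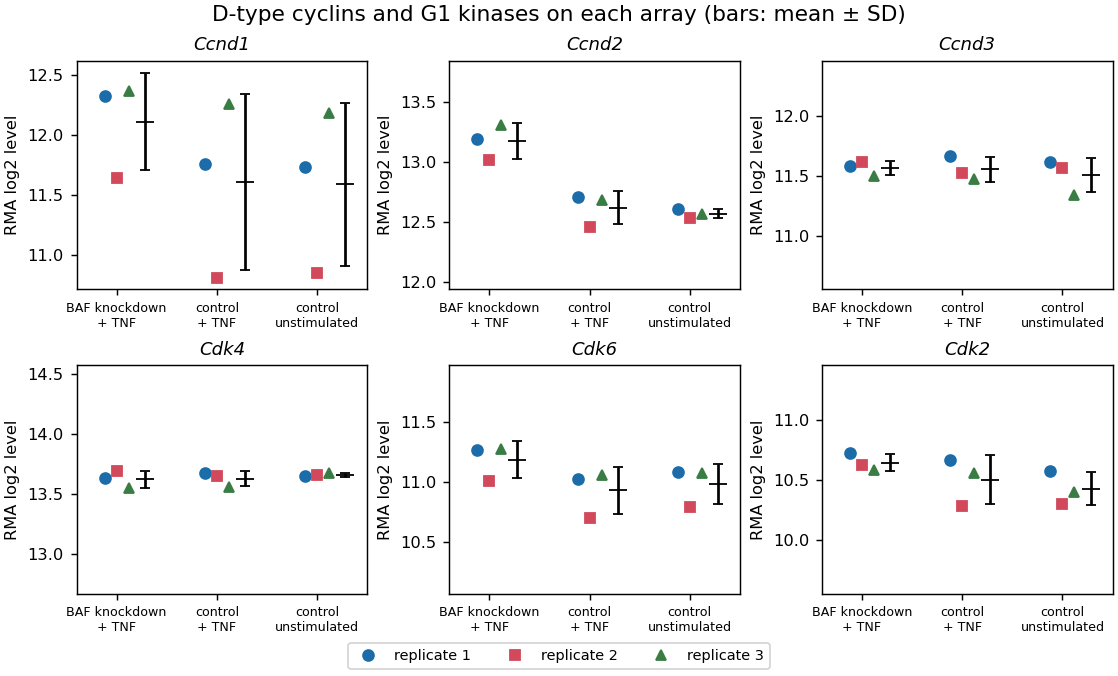
RMA log2 level (y axes, the same span for each gene, not starting at 0) of 3 D-type cyclin genes and 3 G1 kinase genes on each array, by group from left to right as TNF-treated BAF-knockdown, TNF-treated control and unstimulated control cells. Colour and shape give the replicate number and bars the mean ± SD (n = 3); the 3 knockdown arrays lie above all 6 control arrays for Ccnd2, while Ccnd1 is lowest on array 2 in every group.

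The remaining G1 regulators were not called in the knockdown in either fit. The cyclin E genes *Ccne1* and *Ccne2* differed by 0.00 ± 0.19 and -0.14 ± 0.27, and *Cdc25a*, a phosphatase that activates Cdk2, by -0.09 ± 0.11. Among the E2F activators, *E2f1* differed by -0.01 ± 0.16, *E2f2* by 0.11 ± 0.08 and *E2f3* by 0.02 ± 0.13. The retinoblastoma gene *Rb1* differed by 0.06 ± 0.12 and its relative *Rbl1*, encoding p107, by 0.15 ± 0.09. The 14 G1 regulators had a median difference of 0.04, with 10 above 0, where the median over all genes was 0.01 and 54.5% of genes lay above 0.

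The S phase genes had a median difference of 0.03 in the knockdown, with 8 of 13 above 0 and 0 called in either fit. The largest was that of *Cdt1*, which loads the MCM helicase onto origins. *Cdt1* stood at 11.37, 11.32 and 11.43 on the BAFkd_st arrays, against 11.21, 10.73 and 11.33 on the control_st arrays, a difference of 0.28 ± 0.16 (1.21-fold, adjusted p = 0.749, blocked 0.206). The control_st arrays spread over a wider range than the knockdown arrays and overlapped them. The next were 2 helicase subunit genes, *Mcm3* (0.17 ± 0.20) and *Mcm4* (0.12 ± 0.18), and both turned below 0 without control_st array 2 (-0.04 each). *Mcm3* was at 11.04, 10.80 and 10.63 on the BAFkd_st arrays, against 10.96, 10.23 and 10.77 on the control_st arrays, so the pairs disagreed in sign. *Cdc6*, the partner of *Cdt1* in loading the helicase, differed by -0.04 ± 0.22, and *Gmnn*, encoding the Cdt1 inhibitor geminin, by -0.03 ± 0.14. The sliding clamp gene *Pcna* differed by 0.02 ± 0.11, the ribonucleotide reductase genes *Rrm1* and *Rrm2* by 0.00 ± 0.06 and -0.04 ± 0.12, and the thymidylate synthase gene *Tyms* by 0.06 ± 0.11.

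The 20 genes of G2 and mitosis lay higher in the knockdown as a description, with a median difference of 0.14 and 18 of 20 above 0, and 0 were called in either fit. Leaving out 1 array moved this median between 0.07, without control_st array 2, and 0.24, without control_st array 3. The largest differences were those of *Cdc25c*, a phosphatase that activates Cdk1 (0.28 ± 0.20), and of the kinetochore genes *Cenpe* (0.25 ± 0.15) and *Cenpf* (0.24 ± 0.21). *Cdc25c* stood at 9.46, 9.79 and 9.92 on the BAFkd_st arrays, against 9.21, 9.30 and 9.83 on the control_st arrays. *Cenpf* stood at 9.94, 10.38 and 10.32 on the BAFkd_st arrays, against 9.77, 9.79 and 10.36 on the control_st arrays. For both genes the groups overlapped, and pair 2 gave the widest gap. The values of *Top2a*, encoding the topoisomerase that untangles chromosomes, were 12.27, 12.24 and 12.36 on the BAFkd_st arrays, against 12.21, 11.98 and 12.06 on the control_st arrays. *Top2a* did not overlap between these groups (0.21 ± 0.07, 1.16-fold), and its adjusted p was 0.414, or 0.122 with the block. The genes below 0 were *Cdk1*, the kinase of mitotic entry (-0.01 ± 0.07), and *Cdc25b*, another phosphatase acting on it (-0.13 ± 0.20). The mitotic kinases *Aurka*, *Aurkb* and *Plk1* differed by 0.11 ± 0.16, 0.05 ± 0.07 and 0.09 ± 0.15, and the transcription factor *Foxm1* by 0.09 ± 0.08.

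**Figure D2:**
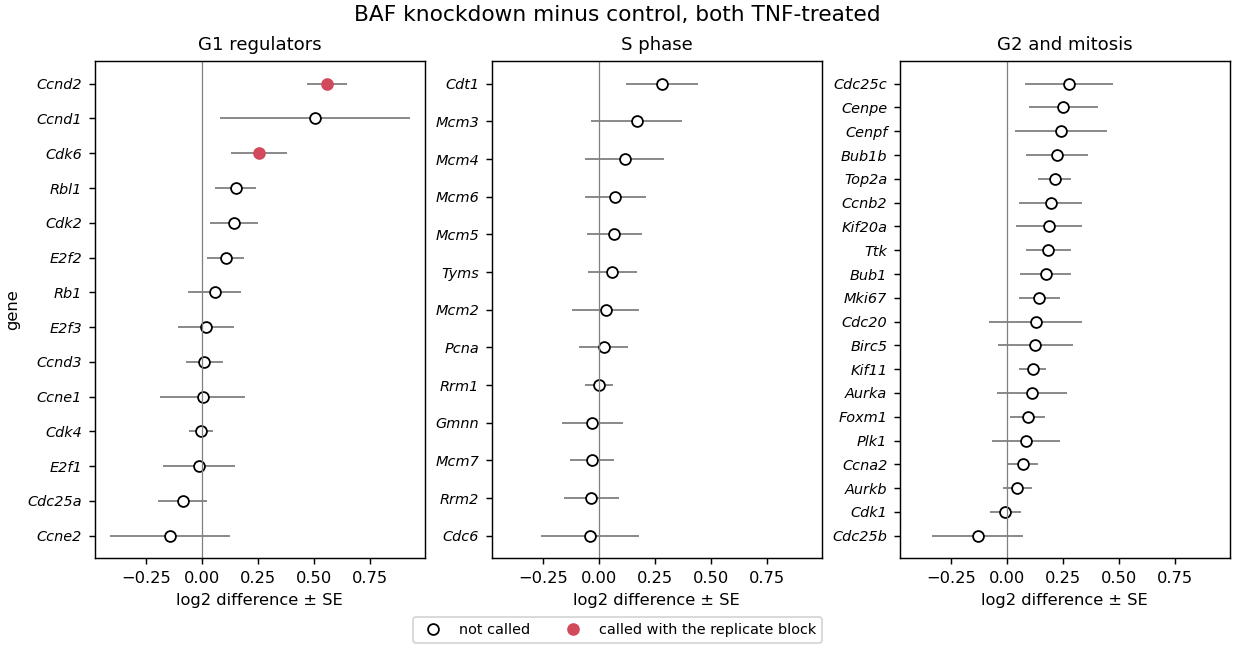
Log2 difference (x axes) between TNF-treated BAF-knockdown and TNF-treated control cells for each of the 47 genes (y axes, sorted within its class), with bars for the standard error of the limma fit without the replicate block. Filled points mark Ccnd2 and Cdk6, called with the replicate block; no gene was called without it, and 18 of 20 G2 and mitosis genes lie above 0.

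After 1 h of TNF-α no cell cycle gene was called, and the genes of G2 and mitosis lay slightly lower as a description. Of the 47, 0 were called in TNF-treated against unstimulated control cells, where 0.137% of all genes were called, and 0 with the block, where 0.396% were. The count was also 0 at an unadjusted p under 0.05, in either direction, where 1.85% of all genes were higher and 1.22% lower without the block and 3.02% and 2.24% with it. It was 0 by the methods' t-test, which also asks for a difference beyond 0.35. None of the 47 genes reached that difference, so the threshold alone fixed this count. For genes whose arrays did not overlap between the groups the count was 0, against 3.19% of all genes on the higher side and 2.78% on the lower. The differences ran between -0.22 and 0.09, with a median of 0.01 for G1 regulators, -0.04 for S phase genes and -0.08 for genes of G2 and mitosis. Above 0 lay 8 of 14, 3 of 13 and 3 of 20 genes of these classes, against 48.6% of all genes. Of the 20 genes of G2 and mitosis, 13 were lower with TNF-α in all 3 pairs, as were 3 of 14 G1 regulators and 5 of 13 S phase genes, against 16.1% of all genes. The G2 and mitosis medians in pairs 1, 2 and 3 were -0.08, -0.08 and -0.04. Leaving out whole pairs kept the medians between -0.01 and 0.04 for G1, -0.05 and -0.02 for S phase and -0.09 and -0.05 for G2 and mitosis. Leaving out single arrays, which breaks a pair, moved them between -0.06 and 0.10, -0.15 and 0.07, and -0.16 and 0.01.

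The largest differences after TNF-α in each class were not called either. *Cdc25b* stood at 9.57, 9.70 and 10.19 on the control_st arrays, against 9.85, 9.95 and 10.34 on the control_ns arrays, a difference of -0.22 ± 0.20 that had the same sign in each pair. The range within each group was wider than the difference between them, but the replicate number held 81.8% of that within-group variance. With the block the limma difference was -0.22 ± 0.10 (unadjusted p = 0.0567, adjusted p = 0.959) and was not called. *Birc5*, encoding survivin of the chromosomal passenger complex, differed by -0.14 ± 0.17 and *Cenpf* by -0.13 ± 0.21, and both lay above 0 without control_ns array 3 but below 0 on leaving out any whole pair (-0.19 to -0.10 and -0.14 to -0.12). In S phase the largest were *Mcm2* (-0.09 ± 0.15), *Cdt1* (-0.09 ± 0.16) and *Mcm3* (-0.08 ± 0.20), and in G1 *E2f2* (-0.12 ± 0.08), *Ccne1* (-0.10 ± 0.19) and *E2f3* (0.09 ± 0.13). The genes that stood out in the knockdown were not called here, *Ccnd2* at 0.05 ± 0.09, *Cdk6* at -0.05 ± 0.12 and *Ccnd1* at 0.02 ± 0.42. With the block their standard errors were 0.06, 0.05 and 0.12 in that order. The TNF-α and knockdown comparisons share the control_st arrays, so a control_st array that is low pulls them in opposite directions.

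The spread of these genes among replicates was wide and followed the replicate number. Their median within-group SD was 0.17, against 0.09 over all genes tested, and same-numbered arrays of different groups moved together. The 47 genes also had a higher array signal, with a median mean level of 11.2692, against 7.9979 over all genes tested. Genes of matched signal were not compared. The part of signal level in this and the following comparisons of spread and replicate number with all genes was not tested. Of the within-group variance of a gene, the replicate number held a median of 73.5% over the 47 genes (76.0% in G1, 84.4% in S phase and 67.5% in G2 and mitosis), against 42.0% over all genes. In a model with group and replicate number, limma's F test called 8 of the 47 for the number, against 3.98% of all genes, and 33 had an unadjusted p under 0.05, against 20%. The 8 were *Ccnd1*, *Ccne1*, *Cdk6*, *E2f1*, *Mcm4*, *Mcm6*, *Cdc6* and *Cdc25c*.

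The classes differed in which replicate was high. On control_st arrays 1, 2 and 3 the S phase genes deviated from their own means by a median of 0.19, -0.24 and -0.02, and on the control_ns arrays by 0.19, -0.19 and -0.00. Array 1 was the highest in both control groups for 12 of 13 S phase genes, against 13.9% of all genes, with *Cdt1* the exception, and for 10 of 14 G1 regulators and 3 of 20 G2 and mitosis genes. Array 2 was the lowest in both for 13 of 13, against 17.7%. Genes of G2 and mitosis instead stood highest on array 3, with median deviations of -0.15, -0.19 and 0.16 on the control_st arrays and -0.00, -0.12 and 0.20 on the control_ns arrays. Array 3 was the highest in both control groups for 15 of 20 of them, 1 of 14 G1 regulators (*Ccnd1*) and 1 of 13 S phase genes (*Cdt1*), against 13.2% of all genes. The low array 2 was common to the classes, being the lowest in both control groups for 11 of 14 G1 regulators and 10 of 20 G2 and mitosis genes as well.

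**Figure D3:**
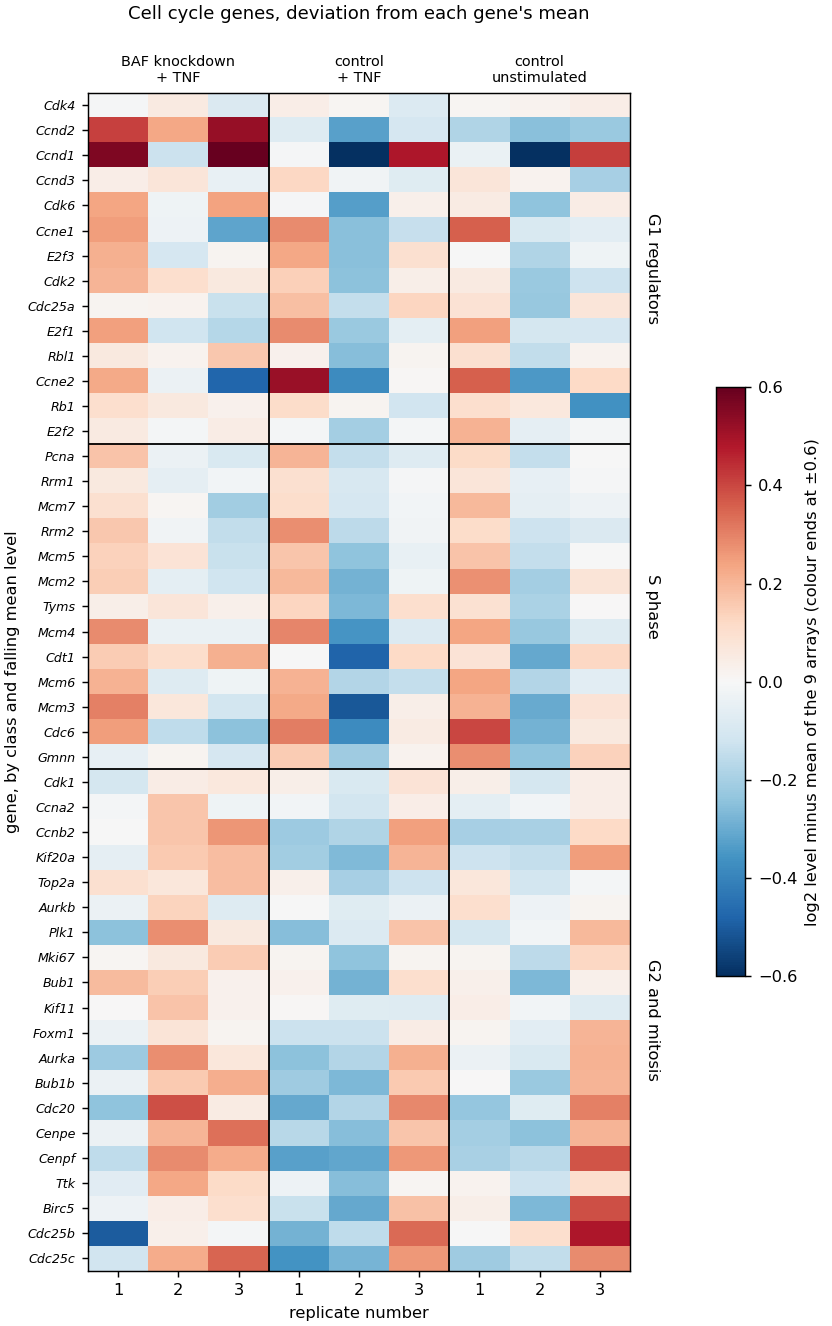
Log2 level of each of the 47 genes (rows, by class and falling mean level) minus its mean over the 9 arrays, on each array (columns, by group and replicate number), with colours ending at ±0.6. S phase genes are high on array 1 and low on array 2 of both control groups, most G2 and mitosis genes are high on array 3 of those groups, and Ccnd2 is high on all 3 knockdown arrays.

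Single genes show the order plainly. *Mcm6*, a helicase subunit with doubled E2F words in its promoter, stood at 11.32, 11.04 and 11.09 on BAFkd_st arrays 1, 2 and 3, at 11.32, 10.94 and 10.97 on the control_st arrays and at 11.35, 10.94 and 11.05 on the control_ns arrays (replicate number, adjusted p = 0.0178). Array 1 was the highest in every group. *Mcm4* stood at 11.51, 11.19 and 11.19 on the BAFkd_st arrays, at 11.52, 10.88 and 11.15 on the control_st arrays and at 11.47, 11.00 and 11.15 on the control_ns arrays (adjusted p = 0.0223). *Cdc6* stood at 9.17, 8.76 and 8.67 on the BAFkd_st arrays, at 9.22, 8.54 and 8.96 on the control_st arrays and at 9.32, 8.63 and 8.97 on the control_ns arrays (adjusted p = 0.0324). Its arrays 1 were high throughout, and its lowest array was 2 in the controls but 3 in the knockdown. *E2f1* followed the S phase genes, at 10.60, 10.24 and 10.19 on the BAFkd_st arrays, 10.64, 10.13 and 10.30 on the control_st arrays and 10.60, 10.25 and 10.26 on the control_ns arrays (adjusted p = 0.0169), as did *Ccne1* (adjusted p = 0.0271).

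*Cdc25c* ran the other way, with array 1 the lowest and array 3 the highest in every group, and its control_ns arrays stood at 9.36, 9.42 and 9.86 (adjusted p = 0.0269). *Ccnb2*, encoding the mitotic cyclin B2, had the same order with 12.60, 12.77 and 12.86 on the BAFkd_st arrays, 12.38, 12.42 and 12.84 on the control_st arrays and 12.40, 12.41 and 12.72 on the control_ns arrays, and an adjusted p of 0.0524. *Ccnd1* had the widest range between the numbers, 1.17 on the log2 scale (adjusted p = 0.00907). *Ccnd2* ranged over 0.18 between the numbers, against a median of 0.28 for the 47 genes and 0.10 for all genes. It was not called for them (F test, unadjusted p = 0.0340, adjusted p = 0.204), although the number held 73.5% of its within-group variance.

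**Figure D4:**
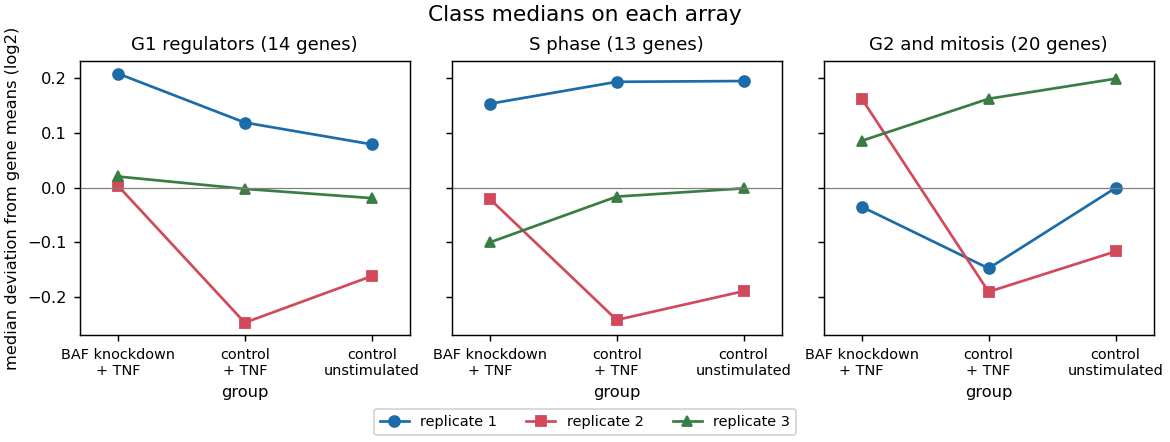
Median deviation of each class of genes from their own means over the 9 arrays (y axis, log2), for each array, by group from left to right as TNF-treated BAF-knockdown, TNF-treated control and unstimulated control cells, with lines joining arrays of the same replicate number. Array 2 lies lowest in both control groups in every class, and highest in the knockdown group for G2 and mitosis genes.

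BAFkd_st array 2 did not follow the other arrays numbered 2. Its median deviations were 0.00 for G1, -0.02 for S phase and 0.16 for G2 and mitosis, against -0.25, -0.24 and -0.19 on control_st array 2. Of the 47 genes, array 2 was the lowest of the knockdown group for 10 (32.5% of all genes), of the control_st group for 35 (29.5%) and of the control_ns group for 36 (30.8%). For genes of G2 and mitosis the order of the knockdown group had array 1 lowest in 16 of 20, against 22.2% of all genes, and array 2 highest in 10, against 29.4%. *Cdc20*, the activator of the anaphase-promoting complex, stood at 10.74, 11.37 and 11.03 on the BAFkd_st arrays, against 10.67, 10.80 and 11.27 on the control_st arrays, with 10.75, 10.91 and 11.28 on the control_ns arrays. *Kif11*, a motor of the mitotic spindle, stood at 11.70, 11.87 and 11.72 on the BAFkd_st arrays, against 11.70, 11.62 and 11.62 on the control_st arrays. Without BAFkd_st array 2 the replicate number was called for 32 of the 47 genes (7 in G1, 12 in S phase and 13 in G2 and mitosis), against 11.7% of all genes, and over the 6 control arrays alone, a setting added after the data were seen, for 27, against 11.4%. Without BAFkd_st array 3 the count was 17, against 6.42%. Without BAFkd_st array 1 it was 2, against 1.2%, and without any single control array it was between 0 and 2, against 0.569% to 1.18%, with 0 when control_st array 2 or control_ns array 2 was left out.

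The knockdown differences of these genes varied by pair. In pair 2, 47 of 47 genes were higher on the knockdown array, against 43.1% of all genes, with a median of 0.28. In pair 1, 23 were higher (56.9% of all genes), and in pair 3, 19 (44.2%), with medians close to 0 in both. By class the medians in pairs 1, 2 and 3 were -0.01, 0.21 and 0.02 for G1, -0.03, 0.23 and -0.09 for S phase, and 0.06, 0.36 and -0.02 for G2 and mitosis. The class median of G2 and mitosis genes thus rested mostly on pair 2, and without all arrays numbered 2 it was 0.04. Set against control_ns array 2, which does not enter the knockdown comparison, BAFkd_st array 2 was higher for 43 of 47 genes, against 46.6% of all genes. Control_ns array 2 was itself the lowest of its group for 36 of the 47, so this count is not separate from the low control arrays 2. Of the 47 genes 13 were higher in the knockdown in all 3 pairs, against 12.9% of all genes, and these included *Ccnd1*, *Ccnd2*, *Cdk2*, *Cdk6*, *E2f2* and *Rbl1* of G1, *Mcm6* and *Cdt1* of S phase, and *Ccnb2*, *Cdc25c*, *Cenpe*, *Bub1b* and *Top2a* of G2 and mitosis. No gene was lower in all 3 pairs, against 12.8%. The *Smarca4* level on BAFkd_st array 2, 10.64, was the highest of the knockdown group and lay below all 6 control arrays. Its part in the pattern was not tested.

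**Figure D5:**
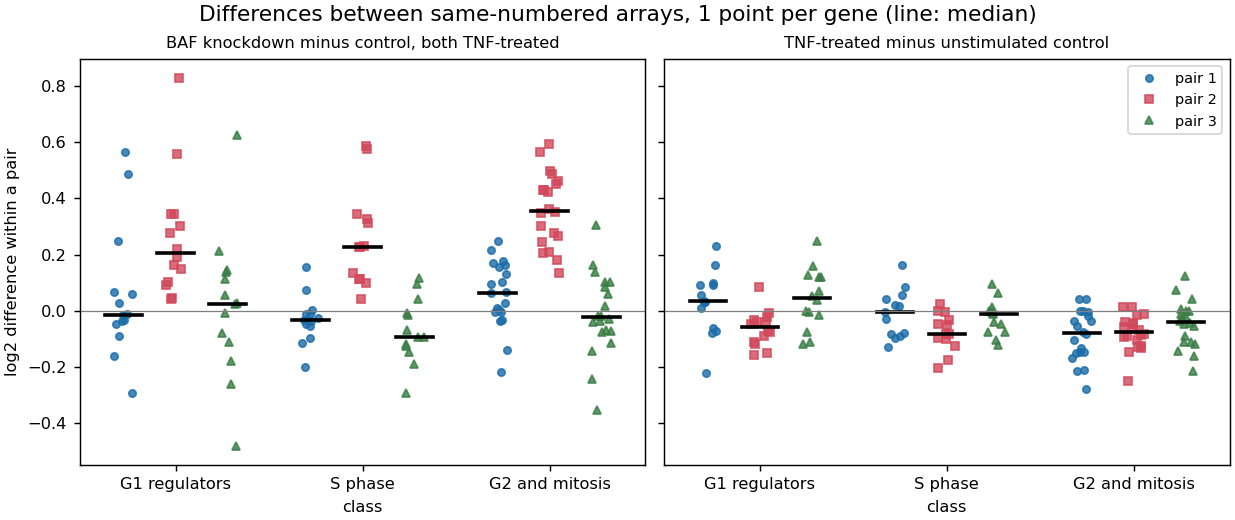
Log2 difference between same-numbered arrays (y axis) for each gene, by class (x axis) and pair, for TNF-treated BAF-knockdown over control cells (left) and for TNF-treated over unstimulated control cells (right), with lines at the class medians. In the knockdown comparison 47 of 47 genes lie above 0 in pair 2, against 23 in pair 1 and 19 in pair 3.

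Of the other genes of the pathway 103 of 106 were measured and 0 were called after TNF-α or in the knockdown, with or without the block. Without the block 0.137% of all genes were called in each comparison. With it 0.396% were called after TNF-α and 3.31% in the knockdown. The 37 further mitotic genes measured, such as kinetochore and condensin genes, all lay above 0 in the knockdown, with a median of 0.13 and the largest difference for the midbody gene *Cep55* (0.28 ± 0.21). Their pairs repeated the pattern above, with a median of 0.38 in pair 2 and medians close to 0 in pairs 1 and 3. Of 37 replication genes 30 lay above 0, with a median of 0.08, and of -0.04, 0.29 and -0.05 in pairs 1, 2 and 3. Their extremes were *Uhrf1*, which maintains DNA methylation at forks (0.19 ± 0.19), and *Gins4* of the replicative helicase (-0.08 ± 0.05). The replicate number was called for 7 of these 37 and for 1 of the 37 mitotic genes, *Pttg1*, encoding securin, against 3.98% of all genes.

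The CDK inhibitors and the regulators of E2F were not called in either comparison. In the knockdown 2 of 6 CDK inhibitor genes and 8 of 13 genes of the E2F, Rb and MuvB families lay above 0, and with TNF-α 1 of 6 and 3 of 13 did, with medians of -0.08 and -0.03. Of the inhibitors, *Cdkn2b*, encoding the Cdk4 and Cdk6 inhibitor p15, had the largest knockdown difference (-0.34 ± 0.22, adjusted p = 0.795) and *Cdkn1b*, encoding p27, the highest (0.11 ± 0.09). With TNF-α, *Cdkn2d*, encoding p19, had the largest (-0.28 ± 0.10, unadjusted p = 0.0251, adjusted p = 1). Of the E2F, Rb and MuvB genes, the repressor *E2f6* (0.35 ± 0.15, unadjusted p = 0.0398, adjusted p = 0.549) and the E2F partner *Tfdp2* (-0.22 ± 0.08, unadjusted p = 0.0195, adjusted p = 0.430) lay at the ends in the knockdown. Among 10 further G1 and growth-response genes, *Ccnl1*, a cyclin linked to splicing, and *Myc* had the largest differences after TNF-α, 0.40 ± 0.10 (adjusted p = 0.735) and 0.25 ± 0.07 (adjusted p = 0.928), and *Ccng1*, a p53 target, in the knockdown (0.17 ± 0.04, adjusted p = 0.200).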

How the data were processed

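Transcript levels were measured in 9 arrays of total RNA from 3T3 fibroblasts grown below confluence, hybridised to Affymetrix mouse Gene 1.0 ST arrays. The authors deposited log2 values made by RMA, which corrects background, quantile normalizes the arrays and summarises probes by median polish. Its version and the annotation build are not given in the sources used here. Quantile normalization takes out shifts shared by all genes of an array. Of 27024 rows, 21319 had 1 gene symbol, 1430 several and 4275 none in the platform annotation, and only the first kind were used. For 930 genes with more than 1 such row, among them *E2f3*, *Pcna* and *Top2a*, the row with the highest mean was kept, leaving 19698 genes. No column belonged to another series (0 columns). Arrays have no sequencing depth, and precision is set by 3 arrays a group.

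The test was limma 3.58.1, run in R 4.3.3 with 1 mean per group over 9 arrays, 6 residual degrees of freedom, two-sided tests and Benjamini-Hochberg adjustment over all 19698 genes. The groups share replicate numbers, and the methods place replicates on different days. Deviations from group means correlated at 0.21 to 0.724 between same-numbered arrays (9 pairs) and at -0.566 to 0.0111 between others (18 pairs). Deviations within a group cancel out, so low values between others follow in part from high ones between same-numbered arrays. On the ground of the same-numbered correlations the arrays were treated as paired, in a further fit with the number as a block (4 residual degrees of freedom). The same model gave the F test of the number. Class medians are descriptions. The members and lists were chosen with earlier results of these data known. Genes named with values were, per class and comparison, the 3 largest differences, the 2 smallest p for the replicate number and all called genes. The knockdown targets and the extremes of each other list were added, as were the other members where a role is described. The per-array values of *Cdk4*, *Ccnd3*, *Top2a*, *Cdc20* and *Kif11* were chosen after their values were seen. The fits were tested on simulated data. Alternatives were median centring, repeated quantile normalization, leaving out dim genes, the mean of a gene's rows, array weights, fits of 6 arrays, trend and robust variance, each array or number left out, and the methods' t-test and fold thresholds.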

Additional observations from a re-analysis of the deposited data

How the results depend on the processing

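Centring, leaving out dim genes, averaging a gene's rows and trend and robust variance kept the count of called genes within 1.5 times of that reported in all comparisons. For the knockdown, the reported fit called 0 of the 47 genes (0.137% of all genes). The block gave 2 (3.31%), and 1 without the arrays numbered 2 (*Ccnd2*, 3.29%). The t-test that the methods use for inducible genes, with a difference beyond 0.3, gave 1 without adjustment (*Ccnd2*) and 0 with it. A difference beyond 0.3 alone, the methods' rule for BAF-dependent (lower) and BAF-inhibited (higher) genes, gave 2, both higher (*Ccnd1* and *Ccnd2*). Of all genes 1.87% lay above that threshold and 3.27% below its negative. For knockdown with TNF-α against unstimulated cells, the count of 1 (1.12% of all genes) became 2 with the block (*Ccnd2* and *Cdk6*, 5.34%). It was 2 in the block without number 2 (*Ccnd2* and *Cdc25b*) and 2 without number 3 (*Ccnd1* and *Ccnd2*). A difference beyond 0.3 gave 3, where 2.95% of all genes lay above and 3.9% below. The count was 0 with 6 arrays, in the block without number 1 and by the adjusted t-test. For the other settings of the knockdown comparisons the share over all genes is not given here. For the replicate number, the count of 8 (3.98% of all genes) became 14 with repeated quantile normalization (5.07%), 36 with array weights (20.5%), 27 with control arrays only (11.4%) and 0 in the block without numbers 1 or 3. The cause of these changes was not tested, beyond the fewer arrays in some. The block changed no other call among the 47 genes. Of the other pathway genes it added 3 calls, all for knockdown with TNF-α against unstimulated cells, where 5.34% of all genes were called. They were *Ccnl1* (0.52, adjusted p = 0.0138), *Rfc4* (0.35, adjusted p = 0.0211) and *Rbl2* (-0.29, adjusted p = 0.0480).

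With 1 array left out, the counts ran between 0 and 0 for TNF-α, 0 and 1 for the knockdown, 0 and 1 for knockdown with TNF-α against unstimulated cells and 0 and 32 for the replicate number. For the replicate number the share of all genes called ran between 0.569% and 11.7%, and for the comparisons it is not given here. The medians of G1, S phase and G2 and mitosis genes ran between -0.057 and 0.096, -0.15 and 0.072, and -0.16 and 0.0072 after TNF-α, and between 0.02 and 0.13, -0.05 and 0.13, and 0.07 and 0.24 in the knockdown. The G2 and mitosis median after TNF-α was -0.053 in the block without the arrays numbered 1. Signs turned for uncalled genes. After TNF-α these were *Ccne1* (-0.26 to 0.042), *E2f3* (-0.0088 to 0.23, and -0.015 with its rows averaged), *Mcm2* (-0.21 to 0.035), *Cdt1* (-0.22 to 0.093), *Mcm3* (-0.23 to 0.13), *Birc5* (-0.30 to 0.027) and *Cenpf* (-0.32 to 0.053). In the knockdown they were *Mcm3* (-0.045 to 0.32, and -0.0355 in the block without number 2) and *Mcm4* (-0.037 to 0.29, and -0.019 with array weights).

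With 3 arrays a group, differences under the spread of these genes could not be shown, and unstimulated knockdown cells were not analysed here, so a response to TNF-α within the knockdown was not measured.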
